A study of Mus musculus with 4 samples.

Results

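The BCL2 family decides whether a cell keeps its mitochondria intact or dies by apoptosis. Of 34745 genes in the deposited table, 10 were taken by symbol, and all 10 were found. They fall into 3 roles, with Bcl2, Bcl2l1, Mcl1 and Bcl2a1b as survival genes, Bax and Bak1 as effectors, and Bcl2l11, Bbc3, Pmaip1 and Bid as BH3-only genes. All 10 passed the filter on low counts.

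The samples were cultures of T helper 17 (Th17) cells, the CD4+ subset that makes interleukin 17, grown for 3 days from naive CD4+ T cells of mouse spleen on the C57BL/6 strain. There were 2 libraries of wild-type (WT) cultures, numbered 13 and 15, and 2 of cultures labelled Setd2-CD4 cre, numbered 22 and 24. Setd2 encodes a methyltransferase that trimethylates histone H3 at lysine 36, and Cre under Cd4 control is a common tool for changing genes in T cells, among them those that later become CD8+ cells. The labels give neither the altered Setd2 exons nor whether the WT mice carried Cre, and they do not say that libraries came from separate animals or cultures, so every p-value rests on a spread between samples that could be technical.

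Library totals ran from 11007343 to 12518415 counts, and Setd2 itself stood at 184 and 176 CPM for WT against 144 and 153 CPM for Setd2-CD4 cre, where CPM is the count divided by the TMM-scaled library total, times 1e6. Its log2 fold change was -0.28 (SE 0.10), which was above the threshold of 0.05 (adjusted p = 0.0748, quasi-likelihood test of edgeR), and passed without Setd2-CD4 cre 24 (-0.32, 0.0105) and under 3 other scalings or units. Counts are summed over the whole gene, so they cannot show an exon that was removed. All 8 T cell markers and all 6 Th17 markers listed had counts in each library. Summed Th17 markers stood at 583 and 668 CPM for WT against 1199.6 and 1395 CPM for Setd2-CD4 cre. Of 6, 4 were higher and none was lower, with a median log2 fold change of 0.89. Fewer were called higher when either WT library was left out, and more were called, in both directions, without Setd2-CD4 cre 24. Il17f overlapped between genotypes, at 152 and 187 CPM for WT against 117 and 196 CPM for Setd2-CD4 cre (log2 fold change -0.12). Summed B cell markers stood at 266 and 226 CPM for WT against 789 and 543 CPM for Setd2-CD4 cre, with 10 of 13 tested higher, none lower and a median of 2.39 on the log2 scale. Ighm, at 208 and 173 against 432 and 359 CPM, made up most of that sum in WT. Summed T cell markers went the other way, from 4185 and 4112 CPM to 3617 and 3785 CPM, with 5 of 8 lower and 1 higher (2 and 0 without WT 13, 1 and 0 without WT 15, 6 and 2 without Setd2-CD4 cre 24). CD8 T and NK cell markers summed to 216 and 240 CPM for WT against 493 and 308 CPM for Setd2-CD4 cre, dendritic cell markers to 42.4 and 40.0 against 87.6 and 75.5 CPM, and myeloid and neutrophil markers to 36.4 and 35.4 against 29.5 and 32.7 CPM. Of those tested, 3 of 6, 2 of 4 and 0 of 6 were higher, and none was lower. Gzma (142 and 146 against 295 and 201 CPM) was the largest part of the CD8 T and NK cell sum, while Cd8a and Cd8b1 overlapped between genotypes. H2-Ab1, with means of 20.65 CPM for WT against 45.87 CPM for Setd2-CD4 cre, was the largest part of the dendritic cell sum. Flt3 also rose (means of 3.31 against 16.17 CPM), and Zbtb46 overlapped between genotypes. Itgax was lower in both Setd2-CD4 cre libraries (means of 8.23 against 5.58 CPM) but was not called. Mpo, Siglech and Cd209a were at 0 in every library.

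Survival proteins of the family hold the effectors BAX and BAK in check at the outer mitochondrial membrane. BH3-only proteins sense stress or loss of cytokine signals and bind the survival proteins, and some also activate the effectors directly, after which pores form and cytochrome c leaves. In T cells, BCL2 is maintained by cytokines such as interleukin 7, MCL1 is a short-lived protein needed at several stages, and BIM, the product of Bcl2l11, removes T cells when an immune response ends.

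In Setd2-CD4 cre cultures the survival gene Bcl2 fell 1.49-fold, and 3 of the 4 BH3-only genes rose. Pmaip1 was 2.01-fold higher, Bbc3 was 1.60-fold higher and Bcl2l11 was 1.38-fold higher. Without WT 13, 2 members rose and 0 fell, without WT 15, 1 rose and 0 fell, and without Setd2-CD4 cre 24, 4 rose and 2 fell. Neither effector passed the test (0 at an unadjusted p of 0.05 and 0 by DESeq2), nor did Bcl2l1, Mcl1, Bcl2a1b or Bid. Of the 10 members 4 were called, against 30.7% of the 12927 genes tested, with 3 higher (16.2% of all genes) and 1 lower (14.5%). The genotypes did not overlap for 6 of the 10, against 70.7% of all genes tested. The median log2 fold change was 0.57 over the BH3-only genes, -0.19 over the survival genes and -0.016 over the effectors, beside -0.0088 over all genes tested. Scaling by library totals alone gave 1409 genes higher and 2879 lower in place of 2094 and 1880, upper-quartile factors gave 1565 and 2617, and limma-trend on log2(FPKM + 1) gave 1267 and 2746. Those settings moved the median of all genes by -0.15, -0.11 and -0.11.

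The promoters of 3 of the 4 called members are shown here because these genes differed between the genotypes, each as the 250 bases before the RefSeq transcript start nearest the deposited gene start (GRCm38.p6). Bcl2 lies at chr1:106714291-106714540 on the minus strand, Bcl2l11 at chr2:128125788-128126037 on the plus strand and Bbc3 at chr7:16309333-16309582 on the plus strand. Capitals mark matches, on either strand, to any motif searched.
Bcl2: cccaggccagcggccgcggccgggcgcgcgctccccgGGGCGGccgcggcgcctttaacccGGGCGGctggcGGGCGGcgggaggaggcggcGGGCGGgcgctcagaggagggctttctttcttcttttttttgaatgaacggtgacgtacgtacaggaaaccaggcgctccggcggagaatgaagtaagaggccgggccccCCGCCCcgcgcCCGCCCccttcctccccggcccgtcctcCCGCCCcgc
Bcl2l11: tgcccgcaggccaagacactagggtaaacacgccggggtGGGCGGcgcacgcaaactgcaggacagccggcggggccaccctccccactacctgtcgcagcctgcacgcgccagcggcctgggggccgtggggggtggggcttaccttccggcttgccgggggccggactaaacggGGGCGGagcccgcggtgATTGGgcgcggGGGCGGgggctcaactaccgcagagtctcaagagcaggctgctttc
Bbc3: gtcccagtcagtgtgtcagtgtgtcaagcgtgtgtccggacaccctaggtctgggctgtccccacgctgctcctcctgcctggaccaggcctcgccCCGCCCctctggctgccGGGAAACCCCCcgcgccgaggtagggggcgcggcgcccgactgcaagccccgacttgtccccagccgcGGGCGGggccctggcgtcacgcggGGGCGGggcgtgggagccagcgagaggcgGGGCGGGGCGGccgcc
All 3 windows are rich in G and C, at 74.8% for Bcl2, 72.0% for Bcl2l11 and 76.4% for Bbc3. The GC box (GGGCGG) has 7 matches before Bcl2, 3 before Bcl2l11 and 5 before Bbc3, of which the last pair overlap. It was found in 7 of the 9 members with a window and in 32.9% of 27025 promoters of the same length. Those promoters were the first listed start of each gene, chosen otherwise than for the members, and were not matched for G and C. The shares are therefore not a test of enrichment. The other capitals are a CCAAT box (CCAAT) on the minus strand in Bcl2l11 and a run holding 2 overlapping NF-kappaB matches in Bbc3, motifs found in 34.5% and 3.75% of all promoters. The E-box (CACGTG, 6.05%) and the p53 decamer (7.18%) were found only before Bax among the 9. The STAT motif (TTCNNNGAA, 7.18%), the CRE (TGACGTCA, 1.62%) and the TATA box (TATAAA, 13.0%) were found before none of the 9. Pmaip1, the called member that moved most, had no window and was not searched for any motif. The p53 motif was searched as a single decamer in these 250 bases only, so the search cannot show which genes have or lack a p53 site. A match is a run of letters and not evidence of binding. GC boxes stood before the member that fell as before the 2 shown that rose.

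**Figure D1:**
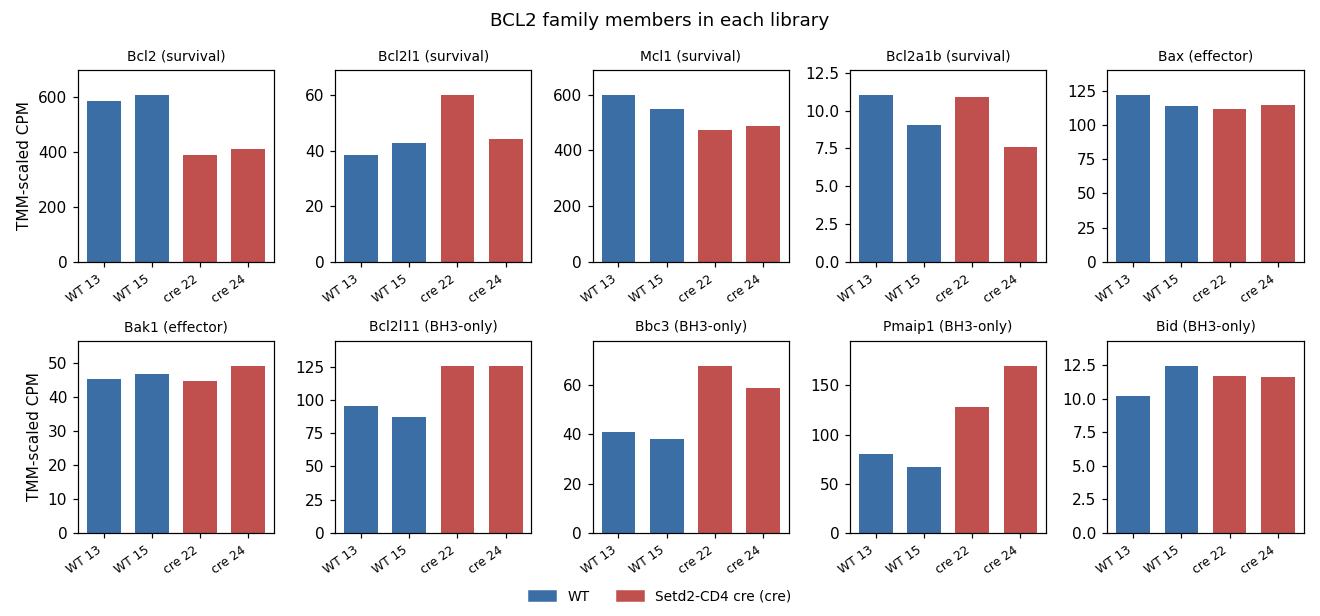
TMM-scaled CPM of each member in the 4 libraries, 1 bar per library, on axes that start at 0 and differ between panels (WT blue, Setd2-CD4 cre red). Bcl2 stands lower, and Bcl2l11, Bbc3 and Pmaip1 higher, in both Setd2-CD4 cre libraries, while the bars of Bax, Bak1, Bcl2a1b and Bid overlap between genotypes.

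Among the survival genes, Bcl2 (ENSMUSG00000057329, chromosome 1, 106538178 to 106714274 in GRCm38, minus strand) encodes the founding member of the family. It had 7677 and 7991 counts for WT against 3981 and 4499 counts for Setd2-CD4 cre, or 585 and 608 against 388 and 412 CPM. Both Setd2-CD4 cre libraries lay well below both WT libraries. The mean went from 597 ± 16.3 to 400.1 ± 17.5 CPM (SD over 2 libraries each), for a log2 fold change of -0.58 (SE 0.11, adjusted p = 0.00795 by edgeR). Its direction was kept in all 11 alternative settings, and its call was lost without WT 13 (adjusted p = 0.0597 by edgeR) and without WT 15 (0.0939), each of which leaves 1 library for that genotype.

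Mcl1 (chromosome 3, 95658788 to 95663176), the gene for the short-lived survival protein, was the most abundant member by counts in WT 13. It stood at 600 and 547 CPM for WT against 472 and 486 CPM for Setd2-CD4 cre. The genotypes did not overlap, but the log2 fold change of -0.26 (SE 0.11, 95% interval -0.52 to 0.00078) did not pass (adjusted p = 0.114 by edgeR). It passed with upper-quartile factors (-0.37, adjusted p = 0.0361 by edgeR), library totals (-0.41, 0.0289), limma-trend on FPKM (-0.41, 0.0339) and without Setd2-CD4 cre 24 (-0.28, 0.0145). Whether Mcl1 counts as lower therefore turned on the scaling and on 1 library.

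Bcl2l1 (chromosome 2, 152780668 to 152831728) encodes BCL-XL, which activated T cells use for survival. It stood at 38.4 and 42.9 CPM for WT against 60.2 and 44.3 CPM for Setd2-CD4 cre. The 2 Setd2-CD4 cre libraries differed, replicate 22 being far above the other 3 libraries and replicate 24 just above WT. Its log2 fold change of 0.36 (SE 0.17, 95% interval -0.032 to 0.75) did not pass (adjusted p = 0.140 by edgeR), and it became 0.57 (adjusted p = 0.000983 by edgeR) without Setd2-CD4 cre 24.

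Bcl2a1b (chromosome 9, 89199209 to 89207827) encodes a mouse A1 protein, a survival member induced by NF-kappaB. Mice carry several near-identical copies of the gene, and 57.6% of the 50-base words in Bcl2a1b transcripts also occur in another Bcl2a1 transcript, so reads can be split between copies. Its values were 11.1 and 9.06 CPM for WT against 10.9 and 7.61 CPM for Setd2-CD4 cre, which overlap (-0.12, SE 0.25, adjusted p = 0.736 by edgeR). The copies Bcl2a1a, Bcl2a1b and Bcl2a1d summed to 249 and 239 counts for WT against 246 and 188 for Setd2-CD4 cre. The log2 fold change of the sum was 0.15 (SE 0.19, adjusted p = 0.588 by edgeR), of the opposite sign. Gm29094, on the same strand, shares 49.1% of the exonic bases of Bcl2a1b, with 0 and 7 counts for WT against 0 and 0 for Setd2-CD4 cre.

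The effectors BAX and BAK form the pores of the outer mitochondrial membrane. Bax (chromosome 7, 45461695 to 45466898) stood at 122 and 114 CPM for WT against 111 and 115 CPM for Setd2-CD4 cre, with a log2 fold change of -0.059 (SE 0.11, adjusted p = 0.701 by edgeR) and a 95% interval of -0.31 to 0.19. Bak1 (chromosome 17, 27019810 to 27029009) stood at 45.4 and 46.6 CPM and at 44.5 and 49.1 CPM (0.027, SE 0.13, adjusted p = 0.889 by edgeR, 95% interval -0.27 to 0.32). The genotypes overlapped for both effectors. These intervals leave out a change of the size seen for Pmaip1 or Bbc3, under this scaling, and do not show that the levels were equal. Ggnbp1 overlaps 18.2% of the exonic bases of Bak1 on the other strand, with 29 to 59 counts, and whether the counting used strand is not given in the sources used here.

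Of the BH3-only genes, Pmaip1 (chromosome 18, 66458604 to 66465550), which encodes NOXA, a protein that binds mainly MCL1 and A1, moved most. It had 1058 and 883 counts for WT against 1311 and 1855 for Setd2-CD4 cre, or 80.7 and 67.2 against 128 and 170.1 CPM. Setd2-CD4 cre 24 was the highest library, and both libraries of that genotype lay above both WT libraries. Its mean went from 73.95 ± 9.50 to 149 ± 29.96 CPM (SD over 2 libraries each), for a log2 fold change of 1.01 (SE 0.16, adjusted p = 0.00499 by edgeR), and it stayed past the threshold in all 11 alternative settings, at 0.79 to 1.21 (adjusted p = 3.51e-07 to 0.0288).

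Bbc3 (chromosome 7, 16309616 to 16318205) encodes PUMA, a p53 target that binds all survival members. It stood at 40.9 and 38.2 CPM for WT against 68.0 and 58.9 CPM for Setd2-CD4 cre, without overlap. The means were 39.6 ± 1.93 and 63.4 ± 6.46 CPM (SD over 2 libraries each), for a log2 fold change of 0.68 (SE 0.13, adjusted p = 0.00872 by edgeR). Only leaving out WT 15, among 11 alternatives, ended the call (0.63, adjusted p = 0.0873 by edgeR).

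Bcl2l11 (chromosome 2, 128126038 to 128162547), the gene for BIM, stood at 95.5 and 87.3 CPM for WT against 126 and 126 CPM for Setd2-CD4 cre. The Setd2-CD4 cre libraries were nearly alike and both were above WT. The log2 fold change was 0.46 (SE 0.11, adjusted p = 0.0172 by edgeR), the smallest of the 3 rises. It kept its sign in all 11 alternatives but lost its call with library totals (0.31, adjusted p = 0.0646 by edgeR), with limma-trend on FPKM (0.27, adjusted p = 0.109 by limma), without WT 13 (0.52, adjusted p = 0.102 by edgeR) and without WT 15 (0.39, 0.218).

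Bid (chromosome 6, 120891930 to 120916853), whose protein links death receptors to mitochondria after cleavage by caspase-8, was the least abundant member in deposited FPKM. Its values of 10.2 and 12.5 CPM for WT against 11.7 and 11.6 CPM for Setd2-CD4 cre overlapped (0.039, SE 0.20, adjusted p = 0.896 by edgeR). Bcl2l13 shares 17.7% of the exonic bases of Bid on the other strand. It had 926 and 907 counts for WT against 800 and 828 for Setd2-CD4 cre, far above the 134 and 164 against 120 and 127 of Bid. The summed markers of Th17, B, dendritic and CD8 T and NK cells given above were higher in the same Setd2-CD4 cre libraries. Those of T cells and of myeloid cells and neutrophils were lower. Single markers such as Itgax and Cd68 went against the sums of their lists. The part of these cell types in the lower Bcl2 and the 3 higher BH3-only genes was not tested. In bulk RNA, fewer cells of a type and less RNA per cell cannot be told apart.

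**Figure D2:**
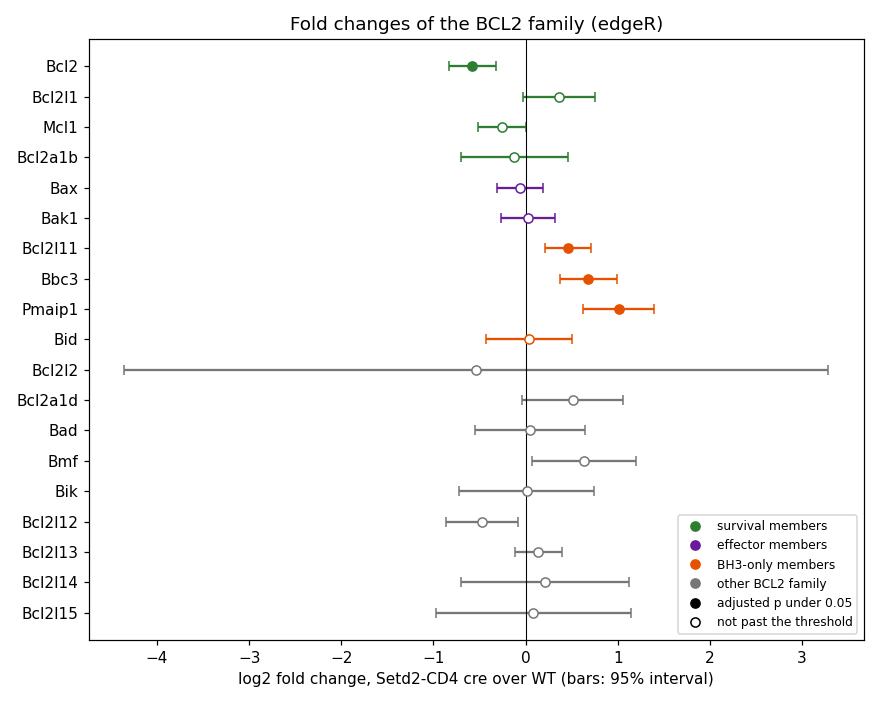
Log2 fold change of Setd2-CD4 cre over WT for the 10 members and 9 other tested BCL2 family genes, with 95% intervals from the edgeR fit; filled points passed an adjusted p of 0.05. The 3 filled points to the right of 0 are Bcl2l11, Bbc3 and Pmaip1, and the filled point to the left is Bcl2.

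A scale that does not depend on library scaling is the ratio of 2 members within a library, taken here from deposited FPKM, which counts fragments per kilobase of gene model. The pairs were chosen after the values were seen and are given with no test. The Bcl2l11 to Bcl2 ratio was 0.105 and 0.0928 for WT against 0.210 and 0.197 for Setd2-CD4 cre, 2.05-fold higher on average. For Pmaip1 to Mcl1, a BH3-only gene and the gene of its main binding partner, it was 0.205 and 0.187 against 0.412 and 0.532 (2.41-fold). Bbc3 to Bcl2 went from 0.243 and 0.218 to 0.608 and 0.495 (2.40-fold), and Bbc3 to Mcl1 from 0.0951 and 0.0974 to 0.201 and 0.169 (1.92-fold). Each of these ratios was higher in both Setd2-CD4 cre libraries than in either WT library. The ratio of Bax to Bcl2 was 2.40 and 2.15 for WT against 3.32 and 3.21 for Setd2-CD4 cre. The ratio of the survival gene Bcl2l1 to Bcl2 was also higher, at 0.0553 and 0.0595 against 0.131 and 0.0905 (1.93-fold), so the difference was not limited to ratios of BH3-only to survival genes. Of the 6 pairs, 4 share Bcl2 as denominator, so they are not separate pieces of evidence.

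**Figure D3:**
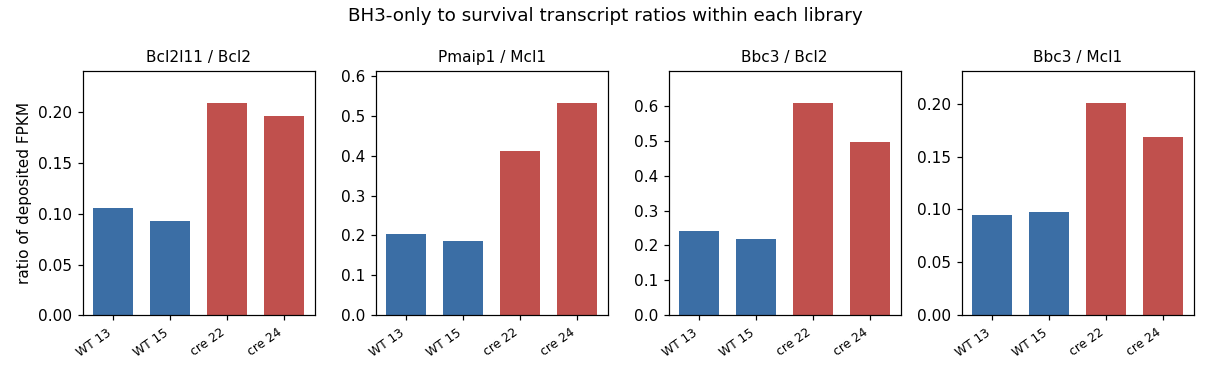
FPKM ratio of a BH3-only gene to a survival gene within each library, 1 bar per library, on axes starting at 0 (WT blue, Setd2-CD4 cre, written cre, red). In the 4 panels both Setd2-CD4 cre bars stand above both WT bars, as for Bcl2l11 to Bcl2 at 0.210 and 0.197 against 0.105 and 0.0928.

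Per length of gene model, in deposited FPKM, Mcl1 (156 and 144) and Bax (147 and 138) were the most abundant members in WT and overlapped each other. Bcl2 followed at 61.1 and 64.2, Pmaip1 at 31.9 and 26.9, Bbc3 at 14.8 and 14.0 and Bcl2a1b at 14.2 and 11.7, the last pair again overlapping. Bak1 (10.8 and 11.2), Bcl2l11 (6.44 and 5.95), Bcl2l1 (3.38 and 3.82) and Bid (1.96 and 2.42) closed the order.

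In Setd2-CD4 cre, Bax (120 and 127 FPKM) stood above Mcl1 (109 and 116), and Pmaip1 (45.0 and 61.9) stood above Bcl2 (36.1 and 39.6). Within each library both neighbouring pairs thus changed places. Mcl1 and Bax had overlapped across the WT libraries, however, and neither gene was called. Bcl2a1b (12.5 and 8.97) and Bak1 (9.44 and 10.8) overlapped in that genotype. Of the summed FPKM of the 10 members, survival genes made up 52.4 and 52.9% for WT against 44.1 and 42.4% for Setd2-CD4 cre. BH3-only genes made up 12.3 and 11.7% for WT against 20.8 and 23.0% for Setd2-CD4 cre, while effectors stayed between 34.7 and 35.4% in the 4 libraries. The rise in the BH3-only share was carried mostly by Pmaip1, which went from 7.14 and 6.37% to 12.2 and 15.6%.

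**Figure D4:**
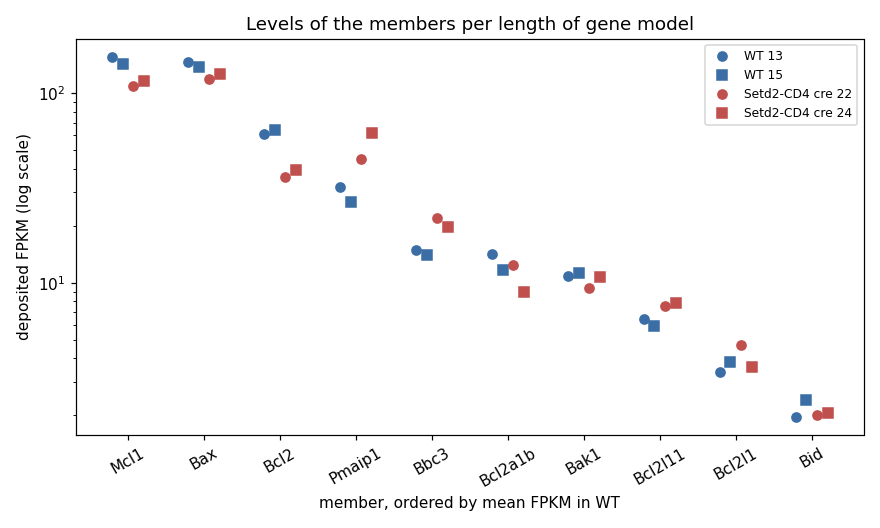
Deposited FPKM of each member in each library on a log axis, members ordered by their WT mean; circles and squares are the replicates of a genotype (WT blue, Setd2-CD4 cre red). In WT 13 levels ran from 1.96 for Bid to 156 for Mcl1, and Pmaip1 and Bcl2 changed places between the genotypes.

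Of 14 further family genes, 9 passed the filter and none was called by edgeR, against 2 at an unadjusted p of 0.05, 0 by DESeq2, 0 by limma-voom and 1 by limma-trend on FPKM. The BH3-only gene Bmf stood at 9.91 and 8.22 CPM for WT against 16.8 and 11.4 CPM for Setd2-CD4 cre (0.63, SE 0.24, adjusted p = 0.0837 by edgeR), and it passed without Setd2-CD4 cre 24 (0.89, adjusted p = 0.00173 by edgeR). Bcl2a1d, another A1 copy, had 0.51 (SE 0.24, adjusted p = 0.137 by edgeR) and passed under the same omission (0.68, 0.0299). Bcl2l12 went from 25.5 and 25.1 to 20.4 and 16.1 CPM (-0.47, SE 0.17, adjusted p = 0.0658 by edgeR), and it passed without Setd2-CD4 cre 22 (-0.64, adjusted p = 0.00542 by edgeR). It passed likewise with upper-quartile factors (-0.58, adjusted p = 0.0337 by edgeR), library totals (-0.63, 0.0237) and limma-trend on FPKM (-0.60, adjusted p = 0.0186 by limma). An antisense gene, Gm15545, covers 28.9% of the exonic bases of Bcl2l12, with 98 and 121 counts for WT against 40 and 24 for Setd2-CD4 cre. The survival gene Bcl2l2 ranged from 7.24 CPM in Setd2-CD4 cre 24 to 46.1 CPM in WT 15. Replicates of both genotypes differed widely (-0.53, SE 1.09). Gm20521, on the same strand, shares 13.3% of the exonic bases of Bcl2l2. It had 288 and 260 counts for WT against 337 and 194 for Setd2-CD4 cre, and its part in that spread was not tested. Bad, Bik, Bcl2l13, Bcl2l14 and Bcl2l15 had log2 fold changes between 0.011 and 0.21 and edgeR adjusted p-values of 0.359 to 0.982. Hrk, Bcl2l10 and Bcl2a1c had no counts in any library, which allows up to 0.292 CPM in each, Bok had 1 count, and Bcl2a1a had 15, 9, 9 and 1.

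The counts in the lists that follow stand beside the 30.7% of all tested genes that were called, 16.2% higher and 14.5% lower, and the lists were chosen with earlier results of these data known. Of 16 genes in a list on mitochondrial leakage, the apoptosome and caspases, 2 rose and 4 fell (median -0.11), so that 37.5% were called, near the share over all genes. Dffb, the nuclease gene that cuts DNA in dying cells, went from 32.5 and 30.9 to 14.6 and 16.3 CPM (-1.03, SE 0.15, adjusted p = 0.00307 by edgeR). Dffa, which encodes its inhibitor (-0.71, adjusted p = 0.014 by edgeR), and Diablo, whose protein leaves mitochondria and blocks inhibitors of apoptosis (-0.93, adjusted p = 0.00411), also fell. Vdac2, an outer membrane channel gene (0.62, adjusted p = 0.0145 by edgeR), rose. Without WT 15 the calls of Dffa (0.169) and Vdac2 (adjusted p = 0.119 by edgeR) were lost, and 0 rose and 2 fell. Vdac2 also lost its call with limma-trend on FPKM (adjusted p = 0.0510 by limma). Without WT 13, 1 rose and 3 fell.

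Of 6 inhibitor genes, 1 rose and 1 fell (33.3% called, near the share over all genes). Birc2, a ubiquitin ligase gene, rose from 282 and 262 to 824 and 662 CPM (1.45, SE 0.14, adjusted p = 0.00106 by edgeR). Birc5, which also acts in cell division, fell from 185 and 190.2 to 106 and 115 CPM (-0.76, SE 0.11, adjusted p = 0.00255 by edgeR). Both calls held in all 11 alternatives. The median of the 6 was -0.29, and 2 rose without Setd2-CD4 cre 22 and 2 fell without Setd2-CD4 cre 24.

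In the death receptor pathway 3 of 11 genes rose and 2 fell (median 0.13), or 27.3% and 18.2% beside 16.2% and 14.5% of all genes. Tnfrsf1b, a TNF receptor gene, went from 118 and 117 to 246 and 228 CPM (1.01, SE 0.10, adjusted p = 0.00123 by edgeR), and Fas, the receptor gene for Fas ligand, from 100.3 and 91.4 to 139 and 138 CPM (0.53, SE 0.11, adjusted p = 0.0105). The adaptor genes Fadd (-1.23, adjusted p = 0.0142 by edgeR) and Tradd (-1.06, adjusted p = 0.00849) fell. Fas lost its call without WT 13 (adjusted p = 0.0644 by edgeR) and without WT 15 (0.151), Tradd likewise (0.0816 and 0.0504), and Fadd without WT 15 (0.120). The numbers that rose and fell were 1 and 1 without WT 13 and 1 and 0 without WT 15. They were 3 and 4 when Setd2-CD4 cre 22 was left out, and 5 and 2 for Setd2-CD4 cre 24.

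Among 9 tested genes that govern the turnover or anchoring of MCL1 and BIM, Usp9x, whose protein removes ubiquitin from MCL1, went from 302 and 279.6 to 483 and 522 CPM (0.79, SE 0.11, adjusted p = 0.00274 by edgeR). Dynll1, which encodes a dynein light chain that binds BIM, fell from 51.8 and 58.7 to 33.8 and 39.5 CPM (-0.59, SE 0.14, adjusted p = 0.0179 by edgeR). The call of Dynll1 was lost without WT 13 (adjusted p = 0.0580 by edgeR) and without WT 15 (0.170). Of the list, 1 rose and 1 fell (22.2% called, below the share over all genes), with a median of 0.11, and 0 fell without WT 13 or WT 15. Without Setd2-CD4 cre 22, 2 rose and 2 fell, and without Setd2-CD4 cre 24, 3 rose and 2 fell.

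Of 17 factors known to act on family genes, 9 rose and 2 fell (median 0.36), or 52.9% and 11.8% beside 16.2% and 14.5% of all genes. Atf4, the stress factor gene, rose from 248 and 256 to 766 and 605 CPM (1.45, SE 0.14, adjusted p = 0.00106 by edgeR). The NF-kappaB gene Rel (0.91, adjusted p = 0.00157 by edgeR), Stat3 (0.86, adjusted p = 0.002) and Mdm2, the gene for the p53 ligase (0.71, adjusted p = 0.00288), rose as well. Trp53 itself fell from 92.9 and 98.8 to 61.9 and 65.4 CPM (-0.59, SE 0.11, adjusted p = 0.00804 by edgeR), and lost its call without WT 15 (0.0929). The number that rose was 5 without WT 13 and 5 without WT 15, and 0 fell without WT 15. The number that fell was 3 without Setd2-CD4 cre 22.

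Among 8 receptor genes for survival cytokines, 1 rose and 2 fell (median -0.12), so that 37.5% were called, near the 30.7% over all genes. Il7r, the interleukin 7 receptor gene, rose (318 ± 2.91 to 575 ± 29.96 CPM, SD over 2 libraries each, a difference of 0.85 on the log2 scale, adjusted p = 0.00191 by edgeR). Il2ra, the interleukin 2 receptor alpha chain gene, fell from 885 and 1044 to 610.3 and 632 CPM (-0.64, SE 0.13, adjusted p = 0.00982 by edgeR), and lost its call without WT 15 (0.136), where 1 gene of the list fell. Il6ra, the interleukin 6 receptor gene, fell (-0.78, adjusted p = 0.00247 by edgeR). Without Setd2-CD4 cre 24, 3 genes of the list fell.

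**Figure D5:**
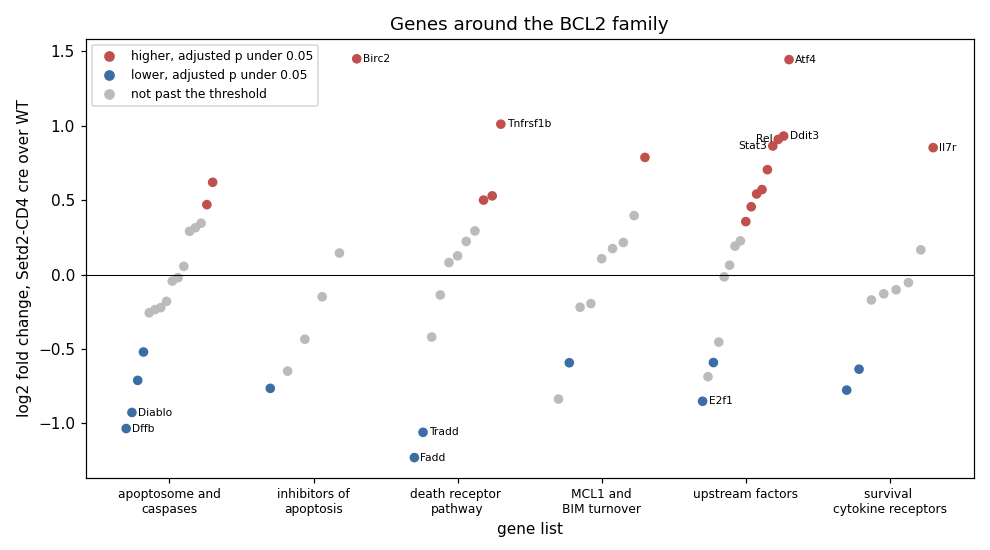
Log2 fold change of Setd2-CD4 cre over WT for each tested gene of 6 lists around the BCL2 family, 1 point per gene, red and blue for genes past an adjusted p of 0.05. Birc2 and Atf4, at 1.45 each, are the highest points, and Fadd at -1.23 is the lowest.

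For each called member, the gene of most similar pattern was sought among 67 tested genes of these lists, by the root mean square distance of log2 CPM centred over 4 libraries. Trp53 was nearest to Bcl2 (0.0130), Stat5b to Bcl2l11 (0.0179), Vdac2 to Bbc3 (0.0649) and Rel to Pmaip1 (0.132). With 4 libraries, genotype makes up most of such a pattern, and many genes share it. Stat5b had a log2 fold change of 0.46 (SE 0.11, adjusted p = 0.0164 by edgeR) and lost its call with library totals (0.0617), limma-trend on FPKM (0.0573), without WT 13 (0.133) and without WT 15 (0.215).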

How the data were processed

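Whole-number read counts per gene and FPKM values were deposited by the authors, per the file headers. Bowtie2, RSEM, GRCm38.p6 and mm10 are named in the submitters' processing notes, without versions or roles, and whether RSEM estimates were rounded, and whether strand was used, is not given in the sources used here. Groups and replicate numbers came from sample titles. For the sample titled 15 the cell type label starts with 14; the title was used.

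The deposited counts entered edgeR 4.0.16 (R 4.3.3; TMM factors of 0.934 to 1.06, filterByExpr by genotype, robust quasi-likelihood fit, Benjamini-Hochberg adjustment over 12927 genes, threshold 0.05). Positive log2 fold changes mean a higher level in Setd2-CD4 cre. For a single gene the smallest exact permutation p (two-sided) that 2 against 2 libraries allow is 0.333. Replicates differed by more than counting noise (chi-square per degree of freedom 8.27 in WT and 17.4 in Setd2-CD4 cre). A count of 0 allows up to 3 counts in a library (0.228 to 0.292 CPM). Floors cover counting error only. Alternatives were RLE, upper-quartile or no factors, no count filter, DESeq2 1.42.0, limma-voom (limma 3.58.1), limma-trend on log2(FPKM + 1) and each library left out. Members and gene lists were chosen with earlier results of these data known. Of 148 listed symbols, 146 matched directly, 1 through a repeated symbol and 1 by gene ID. Named are all members, the close relatives detected, Setd2, up to 4 called genes per list by smallest p, and the nearest gene to each called member. Promoter windows are from RefSeq (GRCm38.p6), matched by symbol for 9 of 10 members, with none for Pmaip1. Coordinates of genes are as deposited.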

Additional observations from a re-analysis of the deposited data

How the results depend on the processing

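No paired analysis was possible because the genotypes share no replicate number. Of the 10 members, 3 rose and 1 fell with RLE factors, with no count filter, by DESeq2, by limma-voom and without Setd2-CD4 cre 22. With upper-quartile factors, library totals and limma-trend on FPKM the number that fell was 2, and with library totals and limma-trend the number that rose was 2. When each library was left out in turn, 1 to 4 members rose and 0 to 2 fell. Over all genes tested, those fits called between 718 and 3068 genes higher and between 564 and 2903 lower. Library totals gave 2879 lower genes, and limma-trend 1267 higher genes. Leaving out any library leaves 1 for its genotype, whichever genotype that is. Fewer genes were called without a WT library, and more without a Setd2-CD4 cre library, than in the main fit. The cause of the shifts between settings was not tested.

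Signs reversed for some genes that no setting called. With upper-quartile factors, library totals and limma-trend in turn, Bak1 was -0.085, -0.12 and -0.12, Bid -0.073, -0.11 and -0.073, Bad -0.059, -0.10 and -0.093, Bik -0.099, -0.13 and -0.17, and Bcl2l15 -0.030, -0.067 and -0.0035. Bcl2l13 was -0.012 with library totals and -0.011 with limma-trend, Bik was -0.037 by limma-voom, and Bcl2a1b was 0.15 with its copies summed. When each library was left out in turn, Bak1 ranged from -0.044 to 0.10, Bid from -0.10 to 0.19, Bcl2a1b from -0.39 to 0.12, Bcl2l2 from -2.25 to 0.24, Bad from -0.32 to 0.36, Bik from -0.49 to 0.39, Bcl2l14 from -0.065 to 0.54 and Bcl2l15 from -0.43 to 0.88. Upper-quartile factors, library totals and limma-trend moved the median of all genes by -0.11, -0.15 and -0.11. Standard errors were 0.20 for Bid and 0.25 for Bcl2a1b, genes with few counts, 0.13 for Bak1 and 0.11 for Bcl2. The cause of these reversals was not tested.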

Other observations

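Among the inhibitors of apoptosis, Xiap, which encodes a direct caspase inhibitor, differed more within than between genotypes, with 931 and 2208 counts for WT against 1397 and 869 for Setd2-CD4 cre (log2 fold change -0.15, SE 0.60, adjusted p = 0.876 by edgeR). The survival gene Bcl2l2 spread likewise, with 303 and 606 counts for WT against 418 and 79 for Setd2-CD4 cre. Both genes were highest in WT 15. These genes, and Apaf1, were singled out after their values were seen. Apaf1, the gene of the apoptosome scaffold, rose by 0.47 (SE 0.15, adjusted p = 0.0493 by edgeR). Its call was lost when either WT library was left out.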
